A study of Drosophila melanogaster with 2 samples.

Results

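Chromatin immunoprecipitation of Usf-GFP from Drosophila melanogaster embryos gave 2767 reproducible peaks, and 801 of them (28.9%) lay upstream of a coding promoter that had no divergent coding partner. Whole embryos of the strain Usf-GFP, aged 0 to 16 h and of mixed sex, were used. They carried an insertion from which Usf is made with GFP at its C terminus, and the fusion was precipitated with an antibody to GFP, per the sample description. The antibody field of the same labels reads Usf, and which of them was used bears on whether native Usf could also be precipitated. The chromatin had been sonicated to 200 to 800 bp. There was 1 group of 2 samples, biological replicates 3 and 4, and no untagged or input library was analysed here. The labels do not say whether native Usf protein was still made in the line, and whole embryos mix all tissues of these ages.

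The members were chosen by position alone. A member is a peak that passed the authors' threshold on the irreproducible discovery rate (IDR) and whose summit (its position of highest signal) lay within 1000 bp of a protein-coding transcription start site (TSS). No minus-strand TSS and plus-strand TSS of different coding genes, pointing away from each other, lay within 1000 bp of that summit, and the nearest coding TSS lay downstream of it on its own strand. Of the 2767 IDR peaks, 1663 lay within 1000 bp of a coding TSS. Divergent coding pairs accounted for 672 of these, and 991 were at unpaired promoters. Among the 991, 801 summits lay upstream of the TSS, 189 downstream of it and 1 exactly at it.

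Usf belongs to the basic helix-loop-helix leucine zipper family, and its vertebrate relatives bind as dimers to the E-box CACGTG. Promoters of flies fall into recognisable kinds. The DNA replication-related element (DRE, TATCGATA) and the element called motif 1 are known from housekeeping promoters, while TATA boxes and GAGA elements, the latter bound by GAGA factor, are known from many regulated genes. An upstream region that serves a lone gene can be told from a divergent region, which lies between a pair of genes and may serve both.

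The sequences at some members illustrate the DNA near the summits. Each is given on the strand of the nearest coding gene, 5′ to 3′, with the genome sequence of Release 6 (dm6) and with annotated UTR bases and bases past the TSS left out. Stretches chosen for CACGTG, the DRE or GAGA elements were placed around the motif and not around the summit. For E23, DhpD, gish and cu the summit lies outside the stretch shown. Sequences were taken from X, 2L, 3L and 3R only. The first set holds, of the members there, the 6 strongest with CACGTG within 100 bp of the summit that could be shown with that motif in sequence outside annotated exons, and capitals mark CACGTG. They lay at chr2L:3354919-3355019 for E23, chr3L:7867471-7867571 for Pdp1, chr2L:20085174-20085274 for fok, chrX:686619-686719 for sdk, chr2L:13395132-13395223 for RpL24 and chr3R:4229352-4229452 for DhpD. Only sdk was read from the plus strand.
E23: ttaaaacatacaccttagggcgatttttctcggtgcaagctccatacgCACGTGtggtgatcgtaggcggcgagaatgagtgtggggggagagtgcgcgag
Pdp1: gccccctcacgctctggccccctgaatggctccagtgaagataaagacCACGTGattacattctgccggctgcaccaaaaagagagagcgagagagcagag
fok: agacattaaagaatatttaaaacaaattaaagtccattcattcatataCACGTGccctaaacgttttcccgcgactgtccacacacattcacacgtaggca
sdk: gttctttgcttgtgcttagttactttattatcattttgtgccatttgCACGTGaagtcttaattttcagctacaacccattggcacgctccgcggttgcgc
RpL24: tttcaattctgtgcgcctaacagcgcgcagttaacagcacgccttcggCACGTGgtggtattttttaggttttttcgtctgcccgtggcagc
DhpD: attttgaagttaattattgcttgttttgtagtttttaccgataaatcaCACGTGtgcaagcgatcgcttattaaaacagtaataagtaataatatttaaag

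The second set shows strong members without CACGTG within 100 bp of the summit, which was the state of nearly all members. It comprises the 4 strongest on the same chromosome arms, centred on the summit. Capitals mark the hexamer TTAAAA, the hexamer ACAGTG and the TATA hexamer on either strand, so that TTTTAA is the first of them, CACTGT the next and TTTATA the last, each read from the other strand. The stretches lay on the minus strand at chr3L:19590582-19590682 for CG14100, chrX:2137285-2137385 for ph-p, chr3R:11760994-11761094 for Lk6 and chr3R:23669804-23669904 for CG31145. Their GC content ran from 29.7% to 31.7%.
CG14100: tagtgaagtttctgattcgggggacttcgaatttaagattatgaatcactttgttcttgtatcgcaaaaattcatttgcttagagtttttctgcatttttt
ph-p: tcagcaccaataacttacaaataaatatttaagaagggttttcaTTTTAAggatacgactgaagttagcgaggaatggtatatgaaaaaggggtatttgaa
Lk6: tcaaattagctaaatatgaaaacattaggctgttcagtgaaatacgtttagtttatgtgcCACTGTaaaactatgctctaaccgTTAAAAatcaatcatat
CG31145: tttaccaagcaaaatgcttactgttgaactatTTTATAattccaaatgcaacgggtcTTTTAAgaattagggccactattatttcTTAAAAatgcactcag

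The third set was chosen after its values were seen. It shows motifs for which divergent peaks stood apart from members and from the whole IDR list. The first 3 are among the strongest members with a DRE, at chr3R:29220085-29220171 for eEF1gamma and chrX:19597908-19598008 for RpS10b on the plus strand and chrX:5322697-5322796 for Rnp4F on the minus strand. There capitals mark the DRE, and in Rnp4F the lower-case ggtcacact nearby is motif 1. The last pair holds GAGA elements on the plus strand, at chr3R:16280788-16280888 for gish and chr3R:11197363-11197463 for cu, where capitals mark CTCTC, which is GAGAG read from the other strand.
eEF1gamma: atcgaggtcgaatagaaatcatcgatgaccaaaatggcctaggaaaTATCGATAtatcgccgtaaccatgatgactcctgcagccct
RpS10b: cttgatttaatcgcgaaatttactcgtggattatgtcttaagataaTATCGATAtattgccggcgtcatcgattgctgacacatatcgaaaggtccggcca
Rnp4F: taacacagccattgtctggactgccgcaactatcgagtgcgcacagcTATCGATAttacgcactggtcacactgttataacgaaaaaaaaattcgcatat
gish: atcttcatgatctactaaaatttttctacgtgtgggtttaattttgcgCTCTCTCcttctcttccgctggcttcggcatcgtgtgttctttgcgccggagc
cu: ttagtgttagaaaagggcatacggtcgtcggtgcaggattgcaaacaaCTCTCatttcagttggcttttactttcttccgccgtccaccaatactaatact

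Most members lay close to the start site they were assigned to. The median distance from summit to TSS was 240 bp, with quartiles of 141 and 390 bp and a range of 1 to 1000 bp. The most filled interval lay from 100 to 200 bp, with 205 members (25.6%), followed by that from 200 to 300 bp with 166. The first 100 bp held 124 members (15.5%), and 27 lay more than 800 bp away. The 189 downstream summits had a median distance of 612 bp. Just inside the 1000 bp limit lay CG6330 at 1000 bp with a signal of 136.4, CG4733 at 995 bp with 106.2 and NFAT at 989 bp with 178.4. Just outside it lay CG9498 at 1013 bp with 207.4, Moe at 1016 bp with 73.8 and CBP at 1017 bp with 212.1.

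**Figure D1:**
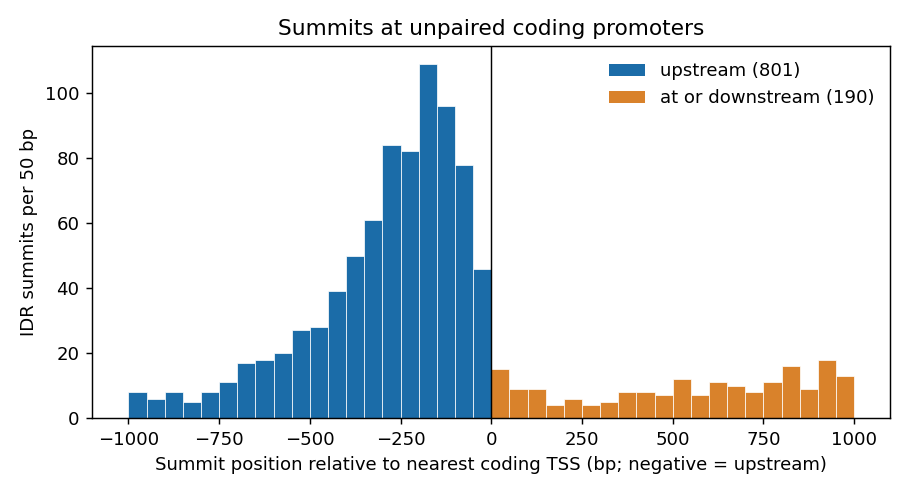
Number of IDR summits per 50 bp at unpaired coding promoters, against the summit's position from the nearest coding TSS in bp, negative being upstream. The 801 members form a mode between 100 and 200 bp upstream, while the 190 summits at or downstream of the TSS are spread with a median of 612 bp for the 189 downstream ones.

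The members were assigned to 697 genes and were of 2 kinds by the start site they lay upstream of. The outermost TSS of the gene was the nearest for 494 members (61.7%), and 307 (38.3%) lay upstream of an internal start site, 275 of them in an intron of the same gene. By annotation, 420 summits were intergenic, 47 lay in an intron of another gene, 28 in a 5′ UTR, 14 in a 3′ UTR, 17 in an exon of a non-coding gene and 0 in a coding exon. The median signal was 128.5 at first start sites and 138.4 at internal ones, and the quartiles overlapped (90.9 to 207.7 and 96.4 to 208.9). Where a summit lay in a transcribed stretch, the annotation alone does not tell which start site was in use in these embryos.

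For the 420 intergenic members, the next gene upstream was usually a coding gene on the same strand. It was so for 243 (57.9%), with a median gap of 758 bp from the member's TSS to that gene. A coding gene on the opposite strand was the neighbour of 89, with a median gap of 4015 bp, a spacing that the rule against divergent pairs sets in part. Non-coding genes were neighbours of the other 88 members. A non-coding TSS lay within 1000 bp of 88 members in all, intergenic or not, and 61 members would have counted as divergent if non-coding genes were allowed as partners.

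Genes with members were mostly long genes with several start sites. Their median length was 7127 bp (quartiles 2681 and 17820 bp), against 1957 bp for 7782 genes at unpaired promoters with no IDR summit within 1000 bp and 2533 bp for the 656 genes at divergent peaks. The 180 genes at downstream peaks had a median length of 7636 bp. A single annotated start site was listed for 41.8% of genes with members and for 78.9% of the genes without a peak. A gene with more start sites offers the rule more places for a member, so these values are a description.

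Most genes had 1 member, but some long genes had several. There were 604 genes with 1 member, 86 with 2 and 7 with 3 or more, and 36 genes also had a downstream summit. Rtnl1, which encodes a reticulon that shapes the endoplasmic reticulum, had 5 members over 4 start sites, all in its own introns, with signals from 80.67 to 595.8. The strongest, 257 bp from its TSS, had 313.5 in replicate 3 and 282.7 in replicate 4. Ptpmeg2, a tyrosine phosphatase gene, had 4 members with signals from 89.41 to 262.5, and dnc, which encodes a cAMP phosphodiesterase, had 4 with signals from 73.4 to 366.0. Pdp1, larp, spi and RapGAP1 had 3 each. The 801 summits lay in 794 distinct peak intervals, because 14 members shared an interval with another member.

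Members lay on every chromosome arm but Y. X held 168 members (21.0%), where it held 15.9% of the unpaired coding promoters. The other large arms held between 17.7% and 22.5% of the members and between 18.9% and 24.2% of the promoters. Chromosome 4 held 5 members and Y held 0. Of the genes whose first TSS is unpaired, 9.16% on X had a member, against 5.96% to 6.93% on the other arms apart from Y. No test was made of this difference, and the embryos were of mixed sex.

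The members spanned the range of signals of the IDR set and recurred in both replicates at about the rate of the whole set. Signals of the replicates are printed side by side, but since their scaling is not stated, only ranks are compared between the replicates' lists. The authors' signal, whose scaling is not stated, had a median of 133.0 (quartiles 92.69 and 207.8) over the members, 117.6 over downstream peaks and 128.5 over divergent peaks. It exceeded the median of the IDR set, 118.9, in 455 members (56.8%), where 50% of all IDR peaks did so by construction. The share was 49.2% in downstream peaks and 55.8% in divergent peaks. Neither difference passed 0.05 by Fisher's exact test: it was 7.6 points against downstream peaks (95% interval -0.273 to 15.4, adjusted p = 0.12) and 1.0 points against divergent peaks (-4.07 to 6.08, adjusted p = 0.71). The share was also taken in the list of either replicate alone, cut to the number of IDR peaks, above the median of the peaks kept. There the members exceeded downstream peaks by 13.3 points (adjusted exact p = 0.0016, replicate 3) and 9.55 points (adjusted exact p = 0.04, replicate 4). This call thus depended on the peak list. Members made up 36 of the 100 strongest IDR peaks and 4 of the 10 strongest, where they were 28.9% of all IDR peaks. The 672 divergent peaks made up 38 and 5.

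A summit of the relaxed list of each replicate lay within 100 bp of the IDR summit for 754 members (94.1%), where 94.5% of all IDR peaks were so matched. The share was 95.2% in downstream peaks (difference -1.11 points, 95% interval -4.01 to 3.18) and 94.0% in divergent peaks (0.0847 points, -2.33 to 2.58), with an adjusted p of 1.0 for both by Fisher's exact test. Because the IDR step itself keeps recurrent peaks, the share is a description. A match was found only in replicate 3 for 30 members, the strongest of them a summit of MFS18 with a signal of 268.5. Only replicate 4 gave one for 17, the strongest being the second summit of HmgZ with 647.0. Over the 754 matched members, the signals of the replicates had a Spearman correlation of 0.789, and a Pearson correlation of 0.82 on the log10 scale; the points share the peaks' width and sequence, and no p is given.

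**Figure D2:**
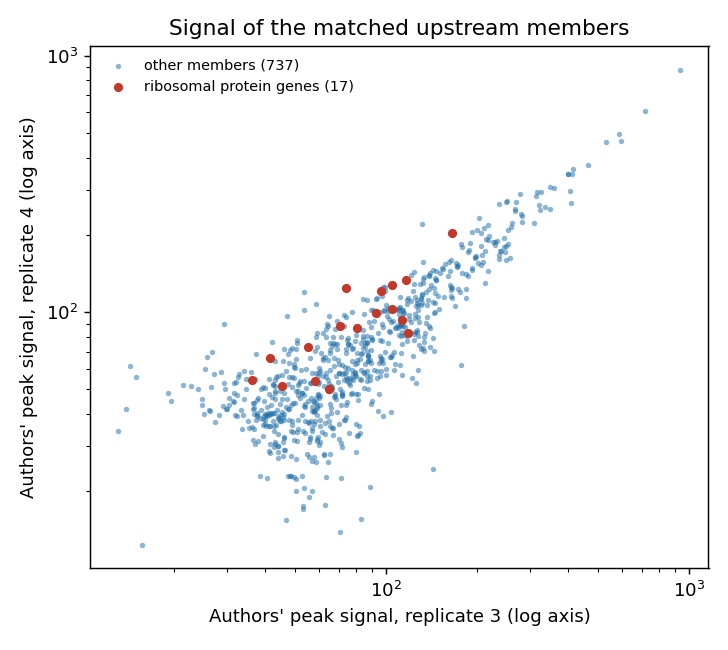
Authors' peak signal of the 754 matched members in replicate 3 (x) and replicate 4 (y), both on log axes, with the 17 members at ribosomal protein genes in red. The signals rise together, with a Spearman correlation of 0.789, and the scales of the axes are the authors' and may differ.

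The strongest members belonged to genes of varied roles, and they were strong in both replicates. The 25 named here are the strongest matched in both, and each ranked at 79 or better among the peaks of replicate 3 and at 88 or better in replicate 4. The first was the peak at CG14100 on 3L (19590414 to 19590817), 108 bp upstream of the TSS in intergenic sequence. Its signal was 938.4 in replicate 3 and 881.0 in replicate 4, rank 1 in both. The next gene upstream, on the same strand and 249 bp from the TSS of CG14100, was ash1. The second lay on X (2137158 to 2137568) in an intron of ph-p, 480 bp upstream of an internal TSS, with 716.8 and 608.4, rank 4 in both. ph-p and its neighbour ph-d encode polyhomeotic proteins, subunits of Polycomb repressive complex 1, and ph-d had a member too, 788 bp upstream, with 279.0 and 241.2.

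Several of the 25 encode regulators of transcription. HmgZ, an HMG-box chromosomal protein gene, had 532.8 in replicate 3 and 461.0 in replicate 4 at a summit 530 bp upstream of an internal TSS. Atf3, a bZIP factor gene, had 400.5 and 346.2 at 222 bp. The zinc-finger gene chn had 347.0 and 251.8 at 167 bp, and Sox14, a Sox-family gene known from the ecdysone response, had 334.9 and 257.9 at 239 bp. All of these ranked at 70 or better in both replicates.

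Other members of the 25 lay at genes of translation, membranes and signalling. eIF6, whose product keeps the large ribosomal subunit from joining the small subunit, had 398.0 in replicate 3 and 345.7 in replicate 4 at 111 bp. Lk6, a kinase gene whose product phosphorylates eIF4E, had 463.8 and 375.0 at 965 bp, close to the distance limit. Signals at larp, which encodes an RNA-binding protein, were 325.5 and 292.9. Among membrane proteins, MFS10, a transporter of the major facilitator family, had 406.5 and 295.6, TRAM, a protein of the translocation channel of the endoplasmic reticulum, had 320.2 and 262.0, and the reticulon Rtnl1 is given above. gish, a casein kinase gene, had 277.0 (rank 74) in replicate 3 and 288.1 (rank 49) in replicate 4. The rest of the 25 were CG1888, px, CG31145, CG13921, Fhos, Tina-1, Fkbp14, CG18549, E23, sp3 and cu, with IDR signals from 533.3 to 1081. Of the 25 summits, 12 lay within 200 bp of the TSS, 13 lay at an internal TSS and 11 were intergenic, and 1, at E23, held CACGTG.

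Few members held the E-box CACGTG. Within 100 bp of the summit, 21 of 801 members had it (2.62%, 95% Wilson interval 1.72 to 3.97), where 2.46% of all IDR peaks held it. The share was 3.17% in downstream peaks (6 of 189) and 3.72% in divergent peaks (25 of 672). By Fisher's exact test the differences were -0.553 points (95% interval -4.24 to 1.63, adjusted p = 0.69) and -1.1 points (-3.03 to 0.702, adjusted p = 0.48). A window of the same length 500 bp further upstream of each summit held CACGTG in 27 members (3.37%; exact McNemar test, adjusted p = 0.51). In 7782 unpaired promoters without an IDR summit, a window centred 240 bp upstream of the first TSS held it in 2.24%. The intervals leave room for differences of a few points, which is as large as the shares themselves.

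The 21 members with CACGTG covered a range of strengths, and all were matched in both replicates. Their signals ran from 85.36 to 572.9, and 15 of 21 exceeded the IDR median. The strongest lay at E23, an ABC transporter gene of the ecdysone response, with 323.1 in replicate 3 and 251.0 in replicate 4 and the hexamer 139.5 bp upstream of the TSS. Pdp1, which encodes a bZIP factor of the circadian clock, had 172.8 and 153.1, with the hexamer 42.5 bp from the summit. For fok, the signals were 154.8 and 146.5. These 3 were similar in rank in both replicates.

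At sdk, which encodes a cell adhesion protein of the immunoglobulin family, the replicates parted: the signal was 143.4 (rank 341) in replicate 3 and 24.33 (rank 4759) in replicate 4, with the hexamer 3.5 bp from the summit. The ribosomal protein genes RpL24 and RpL11 had 118.0 and 113.1 in replicate 3 and 82.64 and 92.97 in replicate 4, with hexamers 11.5 and 7.5 bp from the summits. Coq7, a gene of ubiquinone synthesis, had 133.6 and 76.56, and Nsun5, an RNA methyltransferase gene, had 138.4 and 88.15 and was the only member with 2 hexamers in the window. At chas the values were 119.1 and 97.24, at DhpD 84.84 and 50.51, at Dysb 67.35 and 66.39, and at Msr-110 79.23 and 58.13.

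Weaker members with the hexamer lay at Rab5, CG7006, Tsp42Eg, bark, B4, CG4829, Alp12, bcn92 and CG3808, with IDR signals from 85.36 to 133.1. Between the hexamer's centre and the summit, the median distance was 42.5 bp (quartiles 18.5 and 73.5), and 6 of 21 were within 20 bp. In relation to genes, the hexamer lay a median of 153.5 bp upstream of the TSS, and in 3 members it lay past the TSS in a 5′ UTR. By start site, 18 of the 21 were at the first TSS of the gene (3.64% of 494) and 3 at an internal TSS (0.977% of 307), a difference that was not tested.

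Compared with divergent peaks, the members held fewer DREs and CAGCTG E-boxes and more GAGA elements and ACAGTG. For each of these motifs the members lay nearer than divergent peaks to the share over all IDR peaks. The members also lay nearer to downstream peaks than to divergent peaks. Downstream peaks held a DRE in 1.06%, CAGCTG in 8.99%, GAGAG in 21.7% and ACAGTG in 22.2%. The contrasts below thus set divergent peaks apart more than they mark the members. A DRE lay within 100 bp of 17 members (2.12%) and of 54 divergent summits (8.04%), where 2.71% of all IDR peaks held it. The difference was -5.91 points (95% interval -8.35 to -3.7; Fisher's exact test, adjusted p = 2.6e-06 over 10 motifs and both comparisons). GAGAG was found at 25.3% of members and 15.0% of divergent summits, with 22.0% over all IDR peaks, a difference of 10.3 points (6.22 to 14.3, adjusted exact p = 1.1e-05). For CAGCTG the shares were 7.87% and 13.2%, with 8.1% over all IDR peaks (-5.38 points, -8.62 to -2.24, adjusted exact p = 0.0052), and with only the first TSS of each gene the difference was -3.24 points (adjusted exact p = 0.31). For ACAGTG they were 20.5% and 15.0%, with 19.2% over all (5.44 points, 1.52 to 9.3, adjusted exact p = 0.039), and this call was lost under 9 of 11 alternatives, among them the lists of replicate 3 alone (3.16 points, adjusted exact p = 0.34) and of replicate 4 alone (3.86 points, adjusted exact p = 0.15).

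Distance to the TSS moved with these shares. Of the divergent summits 86.3% lay within 200 bp of a TSS, against 41.1% of the members. When only summits within 200 bp were kept in every class, a choice made after the data were seen, the DRE lay at 16 of 329 members (4.86%) and 52 of 580 divergent summits (8.97%), and the difference of -4.1 points no longer passed 0.05 (adjusted exact p = 0.13). That of CAGCTG was -2.46 points (adjusted exact p = 0.57). GAGAG lay at 75 of 329 (22.8%) and 84 of 580 (14.5%), a difference of 8.31 points (adjusted exact p = 0.02), and ACAGTG at 26.1% and 15.2% (11 points, adjusted exact p = 0.0015). The 36 downstream peaks within 200 bp held GAGAG in 8.33%, ACAGTG in 13.9% and CAGCTG in 19.4%, nearer to divergent peaks than to members. For the DRE, at 2.78%, they lay nearer to the members. The members' differences from them were 14.5 points for GAGAG (Fisher's exact test, adjusted p = 0.21) and 12.3 points for ACAGTG (adjusted exact p = 0.38). Separately, summits at all distances were kept and motifs were counted within 50 bp of the summit in place of 100 bp. The GAGAG difference from divergent peaks was then 3.04 points (adjusted exact p = 0.38), that of CAGCTG -1.05 points (adjusted exact p = 0.67) and that of ACAGTG 1.99 points (adjusted exact p = 0.6).

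For the other motifs no difference from divergent peaks passed 0.05 in the main comparison, but motif 1 passed under 3 of 11 alternatives, TATAAA under 5 and TTAAAA under 2. Motif 1 (GGTCACACT) lay at 1.12% of members and 2.68% of divergent summits (adjusted exact p = 0.11), with 1.08% over all IDR peaks, and counted within 200 bp of the summit the difference was -5.14 points (Fisher's exact test, adjusted p = 4e-05). The TATA hexamer TATAAA lay at 37.0% and 43.0% (adjusted exact p = 0.075), with 37.9% over all, and TTAAAA at 53.2% and 58.2% (adjusted exact p = 0.17), with 52.8% over all. Within 200 bp of the summit these differences were -8.38 points (adjusted exact p = 0.0039) and -8.66 points (adjusted exact p = 0.00079). The hexamer CAGGTA, which the early embryonic factor Zelda binds, lay at 4.37% and 3.72% (adjusted exact p = 0.69), with 4.59% over all, and CAGTGC at 14.7% and 12.2% (adjusted exact p = 0.42), with 15.8% over all. Against downstream peaks, 0 of 10 motifs passed 0.05 by Fisher's exact test, and 0 had an unadjusted p under 0.05. With 189 downstream peaks the intervals were wide, as for GAGAG at 3.65 points (-3.38 to 9.79). With a TSS limit of 500 bp that difference was 15.4 points (adjusted exact p = 0.0071). Motifs were searched as exact letters on both strands, and ACAGTG and CAGTGC can overlap by 5 letters.

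**Figure D3:**
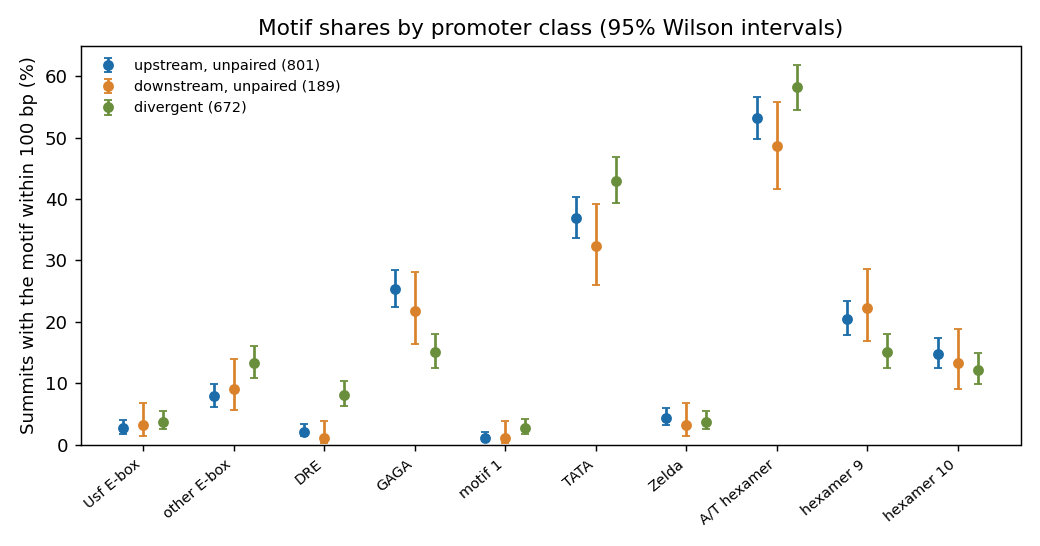
Share of summits with each of 10 motifs within 100 bp (y, percent, with 95% Wilson intervals) in the 801 members, 189 downstream and 672 divergent peaks. From left to right the motifs are CACGTG, then CAGCTG, the DRE, GAGAG, motif 1, then TATAAA, the Zelda hexamer CAGGTA, then TTAAAA, then ACAGTG and finally CAGTGC; the members lie below divergent peaks for TATCGATA (2.12% and 8.04%) and above them for GAGAG (25.3% and 15.0%).

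The DRE members formed a small set close to the start site. All 17 lay at the first TSS of their gene, and 16 lay within 200 bp of it. Of the members 1 to 100 bp from the TSS, 9.68% held a DRE, 5.65% motif 1, 7.26% CACGTG and 18.5% CAGCTG. Between 100 and 200 bp these shares were 1.95%, 0.488%, 1.46% and 7.8%. The GC content at the summit was 42.4% in the first 100 bp and between 31.6% and 34.6% in each interval beyond. These counts are small beyond the first interval, with 4 DRE members between 100 and 200 bp and 1 further out. GAGAG went the other way, from 17.7% in the first 100 bp to between 24.1% and 32.4% in the intervals beyond.

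Compared with their own flanks, the summits were rich in TTAAAA and ACAGTG. The first lay at 53.2% of summits and in 30.6% of the windows 500 bp further upstream, and 290 members held it only at the summit against 109 only in the flank (exact McNemar test, adjusted p = 4.5e-19 over 10 motifs). ACAGTG lay at 20.5% and 8.36%, with 147 against 50 (adjusted exact p = 1.4e-11). Neither has a role stated here, and both, with CAGTGC, were taken up because earlier results of these data had shown them, so the values are no independent evidence. In the 7782 unpaired promoters without a peak, TTAAAA was found in 42.2% and ACAGTG in 7.26%. Here and for the other motifs, those windows were all centred 240 bp upstream of the first TSS. Members varied in distance and 38.3% lay at internal start sites, so neither distance nor kind of start site was matched. TTAAAA and ACAGTG were the only motifs of the 10 past 0.05 when just the 275 members with a flank outside every annotated gene were kept.

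Other motifs differed from the flank less firmly. TATAAA lay at 37.0% of summits and 25.3% of flanks (adjusted exact p = 3.5e-06), but with flanks outside genes the difference was 5.09 points (adjusted exact p = 0.49); promoters without a peak held it in 31.7%. CAGTGC lay at 14.7% and 9.61% (adjusted exact p = 0.0064; 7.27 points with flanks outside genes, adjusted exact p = 0.05), with 8.2% of promoters without a peak. The DRE lay at 2.12% and 0.624% (adjusted exact p = 0.034) and motif 1 at 1.12% and 0.125% (adjusted exact p = 0.036), calls that rested on 17 and 9 members and were lost under 6 and 7 of 10 alternatives; with flanks outside genes their adjusted exact p was 0.62 and 0.31. Promoters without a peak held them in 1.11% and 0.257%. CAGCTG (7.24% of flanks, adjusted exact p = 0.7) and CAGGTA (5.49%, adjusted exact p = 0.44) did not pass 0.05, with 6.8% and 4.59% of promoters without a peak. Of the 801 members, 90 held none of the 10 motifs.

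GAGAG was low at the summit itself and high on both sides of it. Counted within 100 bp, it was found at 25.3% of summits and in 28.0% of flanks (exact McNemar test, adjusted p = 0.36), and in 20.7% of promoters without a peak. Counted per 50 bp, it was found in 4.87% of members just upstream of the summit and 4.99% just downstream, in 13.6% at 151 to 200 bp upstream and in 15.6% at 150 to 199 bp downstream. The result against the flank therefore turned with the window: counted within 50 bp of the summit the difference was -6.87 points (adjusted exact p = 0.00026), and within 200 bp it was 6.87 points (adjusted exact p = 0.0066). Downstream peaks had 4.23% and 4.76% beside the summit and 9.52% and 10.6% at those distances, and divergent peaks had 3.42% to 3.57% and 4.02% to 4.76%. ACAGTG was found in 6.62% at 51 to 100 bp upstream and 7.49% at 50 to 99 bp downstream, against 3.0% in the 50 bp before the summit. TTAAAA had its highest share, 20.5%, in those 50 bp. In the other classes TTAAAA was found in 18.5% and 19.6% on the sides of the summit in downstream peaks, and its highest share in divergent peaks was 25.4%, at 51 to 100 bp upstream. ACAGTG was found at 51 to 100 bp upstream in 10.6% of downstream and 3.57% of divergent peaks, and at 50 to 99 bp downstream in 7.41% and 5.8%. These profiles are descriptions with no test.

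**Figure D4:**
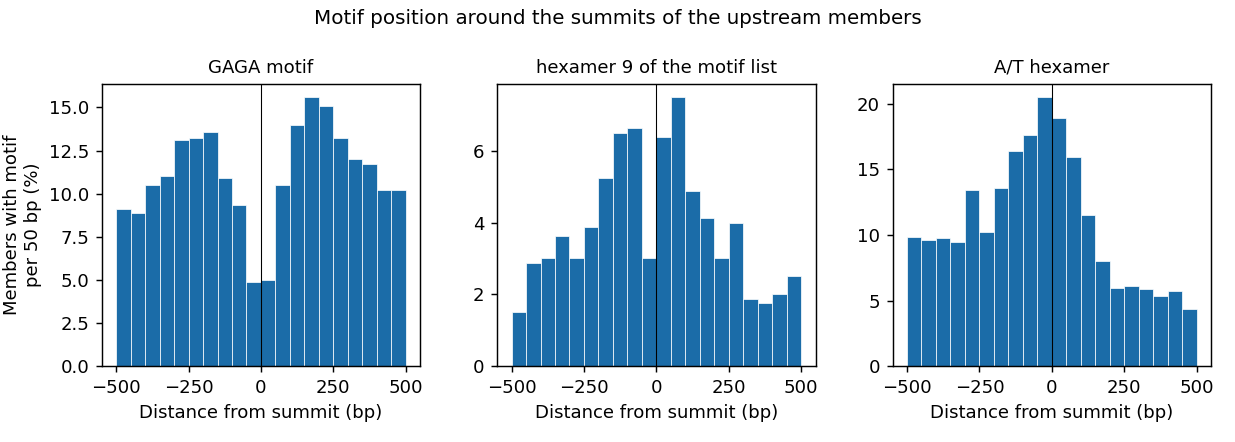
Share of the 801 members with GAGAG (left), ACAGTG (middle) and TTAAAA (right) in each 50 bp (y, percent, scales differ) against the distance from the summit in bp, positive along the strand of the nearest coding gene. GAGAG falls to 4.87% and 4.99% beside the summit, and TTAAAA rises to 20.5%.

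The DNA at the summits was poor in GC, except in the 124 members within 100 bp of the TSS, where it averaged 42.4%. Within 50 bp of the summit the GC content was 34.0% ± 9.0 (SD, n = 801 peaks), against 40.6% ± 10.5 in the flank 500 bp further upstream. It was lower at the summit in 538 members and higher in 236 (exact binomial test, two-sided, p = 5.8e-28). The mean difference was -6.68 points over all members. It was -8.47 points for the 677 members more than 100 bp upstream (exact binomial test, p = 5.8e-38). For the 275 members with a flank outside every annotated gene it was -4.62 points (exact binomial test, p = 2e-06). The means of downstream, divergent and distant peaks were 35.5%, 34.0% and 33.0%, so that a low GC content was shared by all classes. Promoters without a peak had 37.5% ± 10.6 at 240 bp upstream. In the profile the mean was lowest, 32.5%, 50 bp upstream of the summit and rose to 47.5% at 275 bp downstream, towards the gene.

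**Figure D5:**
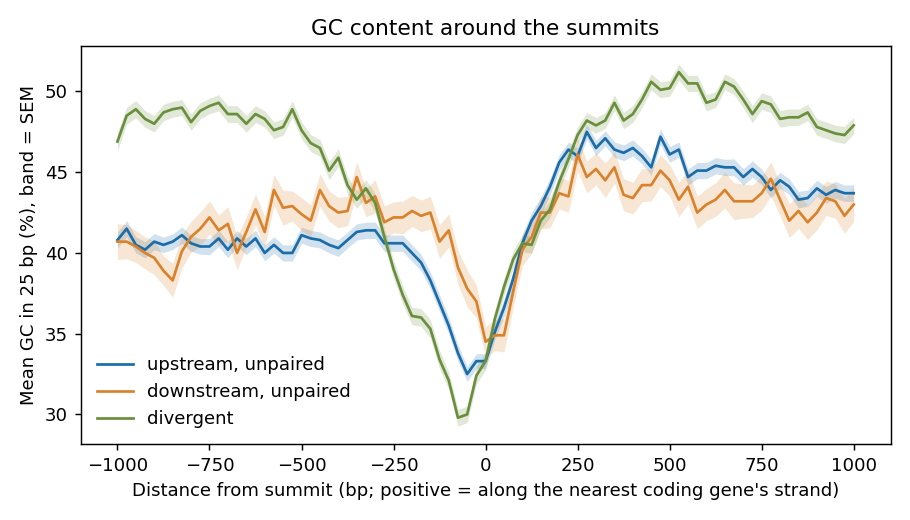
Mean GC content in 25 bp (y, percent, band = SEM over peaks) against the distance from the summit in bp for the members, downstream peaks and divergent peaks, positive along the strand of the nearest coding gene. The members fall to 32.5% at 50 bp upstream of the summit and reach 47.5% at 275 bp downstream.

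Among gene groups, the cytosolic ribosomal protein genes, the longest list, had the most members by count. Of all 13968 coding genes, 697 (4.99%) had a member, and of 85 cytosolic ribosomal protein genes 17 had. The strongest were RpL23A with 165.6 in replicate 3 and 202.6 in replicate 4, RpS10b with 116.5 and 132.9, RpS3A with 105.2 and 127.8, and RpL22 with 96.36 and 121.2. Ranks of the whole group are given below. The others were RpL24, RpL17, RpL11, RpL30, RpS27A, RpS4, RpL27A, RpS29, RpS26, RpL27, RpL15, RpL38 and RpLP2. Their summits lay close to the start, from 4 to 162 bp upstream, with 14 of 17 within 100 bp, and 2 of them held CACGTG.

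Other housekeeping groups had few members or none. There was 0 among 73 mitochondrial ribosomal protein genes and 0 among 48 proteasome genes. The V-ATPase, the proton pump of lysosomes and endosomes, had 1 of 34, Vha16-1, which encodes a subunit of its membrane ring, with 117.5 and 80.64. Translation factors had 4 of 52 (7.69%): eIF6 as above, eEF1gamma with 132.2 in replicate 3 and 134.8 in replicate 4, eIF2Bgamma with 98.32 and 101.8, and eEF1alpha1 with 90.46 and 101.4. A summit near a divergent coding pair cannot be a member by the rule, so a low count here says nothing about binding at such pairs. None of the 9 E-box factor genes, Usf among them, had a member.

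Groups of developmental and signalling genes had between 1 and 4 members each, too few to set against the 4.99%. Polycomb and trithorax genes had 3 of 15, ph-p and ph-d as above and pho, a DNA-binding Polycomb group gene, with 36.57 and 44.11. Signalling genes had 4 of 20. Of these brk, which encodes a repressor of Dpp targets, had 217.4 and 217.9 at 732 bp, and spi, a ligand of the EGF receptor, had 186.5 and 172.0 at 150 bp. The FGF receptor gene htl was matched only in replicate 4 (59.3) and aop, an ETS repressor gene, only in replicate 3 (65.92).

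Growth and insulin signalling had 3 of 13. Lk6 is given above, the insulin receptor gene InR had 93.17 and 113.4 at 638 bp, and foxo, a transcription factor gene downstream of it, had 59.12 and 83.09 at 364 bp. Ecdysone response genes had 2 of 11, E23 and the nuclear receptor gene Eip75B, which had 125.4 and 105.9 at 7 bp. The Hox genes had 1 of 8, Dfd, matched only in replicate 4 (33.42). Segmentation genes had 1 of 21, bcd with 65.84 and 51.56, and insulator and promoter factors 1 of 11, BEAF-32 with 56.63 and 46.29.

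Some groups of members had different ranks in the replicates, which was noticed after the values were seen. Ranked among the 754 matched members in each replicate, the ribosomal protein members stood higher in replicate 4 in 14 of 17, with a median rank of 332 in replicate 3 and 222 in replicate 4. Over all matched members 368 of 754 (48.8%) did so. The DRE members stood higher in replicate 4 in 13 of 16, with median ranks of 568.5 and 349, and the CACGTG members in 6 of 21, with 337 and 385. Of other members within 100 bp of the TSS, 55 of 102 (53.9%) stood higher in replicate 4. With 1 sample on each side, no test of a difference between replicates was possible, and whether depth, embryo age or library preparation differed between them was not tested.

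Single members parted further. On the side of replicate 3 were sdk, given above, sky with 88.91 and 20.76, Sox102F with 82.72 and 15.6, CG12643 with 79.55 and 28.41 and CG6330 with 98.15 and 39.34. On the side of replicate 4 were Poxm with 29.32 and 89.76, pum with 26.69 and 69.99, neur with 25.66 and 66.49, CG14968 with 47.19 and 96.48 and a second summit of spi with 53.78 and 120.0. The first value is replicate 3 and the second replicate 4 throughout. These 10 were picked as the largest shifts in rank, so they describe the edge of the spread and not a difference between the samples.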

How the data were processed

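ChIP-seq peak lists on dm6 were used: 28459 relaxed peaks of replicate 3, 29246 of replicate 4 and 2767 IDR peaks. Each peak's signal score and summit were made by the authors and deposited in narrowPeak layout; the scaling of the score is not stated, so replicates were compared by ranks. The replicates shared 1 control alignment, and the IDR list derives from both, per the deposited sample notes. The peak-calling program, the aligner and the IDR cutoff were not given in the sources used here. Lists on dm3 were not used here. Read depth is unknown, and intervals cover counting error only.

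Peaks were joined to the Release 6 sequence (RefSeq) and the Ensembl 115 annotation (BDGP6.54), with coordinates counted from 1. Of 30618 unsplit start codons, 30565 (99.8%) read ATG in that sequence. Motifs were counted within 100 bp, and GC within 50 bp, of the summit and of a point 500 bp further upstream. Classes were compared by Fisher's exact test and windows of the same peak by exact McNemar or binomial tests, all two-sided, with Benjamini-Hochberg adjustment and a threshold of 0.05; the intervals of differences are 95% Newcombe intervals. Peaks are not replicates of an embryo collection, and p-values refer to the lists made from 2 samples. The motif tests were tested on simulated data. Python 3.11.15, scipy 1.17.1 and statsmodels 0.14.6 were used.

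The members, motifs and gene lists were chosen with earlier results of these data known. Genes named are the 25 strongest members matched in both replicates, members with CACGTG (the 12 strongest with values), the 4 strongest of each gene list, the 3 peaks on each side of the 1000 bp limit, and genes with 3 or more members. Members at replicate extremes and the DRE and GAGA sequences were chosen after their values were seen. The symbols h, Z4, CP190, Dl, Tor and TSC1 matched no coding gene. Other distance limits, start sites, peak sets, partners and windows were tried.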

Additional observations from a re-analysis of the deposited data

How the results depend on the processing

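The lower GC content at the summit and the higher shares of TTAAAA and ACAGTG at the summit than in the flank kept their direction and their side of 0.05 under every alternative run on them. TTAAAA holds only the letters A and T, so its share and the GC content are not separate measures. Both hexamers were taken up because earlier results of these data had shown them. The alternatives reused the same samples, so for the hexamers this is no independent evidence. The lower DRE share than in divergent peaks did so in 10 of 11 alternatives, the exception being summits within 200 bp of the TSS, and the higher GAGAG share in 10 of 11, the exception being motifs counted within 50 bp of the summit. Restricting summits to within 200 bp of the TSS (near the TSS, below), to the strongest per gene, to flanks outside genes or to over 100 bp upstream was chosen after seeing the data. No paired analysis was possible because the series has 1 group. The cause of the changes below was not tested.

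Members fell to 455 among peaks above the IDR median and numbered 789 to 806 in single-replicate lists. Their median distance was 196 bp with a limit of 500 bp, 299 bp with 2000 bp, 211 bp with first start sites and 244 to 247 bp in single-replicate lists. The share with CACGTG was 1.37% within 50 bp, 5.74% within 200 bp and 2.85% to 3.17% in single-replicate lists. Matching in both replicates covered 96.3% of members above the IDR median, 76.7% at 50 bp, 99.6% at 200 bp and 90.7% to 91.1% in single-replicate lists. A summit of a single-replicate list always matches its own replicate, so there the share measures only the match to the other replicate. Among peaks above the IDR median, and in single-replicate lists, strong meant a signal above the median of the peaks kept. The excess of strong members over downstream peaks was 14.3 points among peaks above the IDR median (Fisher's exact test, adjusted p = 0.024). It was 9.55 to 13.3 points in single-replicate lists. The excess over divergent peaks was -0.27 points among peaks above the IDR median and -0.91 to 2.97 points in single-replicate lists.

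Motifs past 0.05 against downstream peaks numbered 0 in the main comparison, 1 with a 500 bp limit (GAGAG, 15.4 points), 2 with 2000 bp (TATAAA, 8.8, and TTAAAA, 9.22 points) and 1 with motifs within 200 bp of the summit (TTAAAA, 10.4 points). Against divergent peaks they numbered 4, then 6 with a 500 bp limit, 6 with motifs within 200 bp of the summit, 2 with first start sites, 1 with motifs within 50 bp of the summit and 3 to 4 in single-replicate lists. Against the flank they numbered 6, then 3 above the IDR median and 2 with flanks outside genes.

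Every direction that reversed belonged to a difference that had missed 0.05 in the main comparison, and after reversal only that of GAGAG against the flank, counted within 200 bp of the summit (6.87 points), passed 0.05; it was also 3.64 points with flanks outside genes. Against downstream peaks CACGTG turned to 0.557 (500 bp limit), 0.00785 (2000 bp), 0.948 (first start sites), 2.22 (above the IDR median), 0.844 (motifs within 50 bp), 0.87 (near the TSS) and 0.153 to 0.802 points (single-replicate lists). There the DRE turned to -0.414 (500 bp limit), CAGCTG to 0.269 (2000 bp), GAGAG to -0.824 (first start sites) and -0.223 to 3.36 (single-replicate lists), motif 1 to -1.28 (500 bp), -0.239 (2000 bp), -0.743 to 0.339 (single-replicate lists), -0.309 (motifs within 50 bp) and -3.12 (near the TSS), CAGGTA to -0.0195 (500 bp) and -1.6 to 1.89 (single-replicate lists), ACAGTG to 12.3 (near the TSS), and CAGTGC to -1.97 (motifs within 50 bp), -2.95 (motifs within 200 bp) and -0.557 points (near the TSS). Against divergent peaks CAGGTA turned to -0.0458 (500 bp), -0.101 to 1.43 (single-replicate lists), -0.158 (motifs within 50 bp) and -0.146 (near the TSS), and CAGTGC to -0.353 points (motifs within 200 bp). Against the flank CAGCTG turned to -0.879 (above the IDR median), -0.62 to 1.27 (single-replicate lists) and -0.624 points (motifs within 50 bp). Matching in both replicates turned against divergent peaks to -0.388 (2000 bp), -0.0628 (first start sites) and -0.375 (non-coding partners), and against downstream peaks to 0.993 (summits within 50 bp), 0.155 (summits within 200 bp), 1.68 (replicate 3 alone) and 4.03 points (replicate 4 alone).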
